A study of Mus musculus with 96 samples.

Results

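The genes described here are 9 members of the lipoprotein lipase system and of the fatty acid binding proteins: Lpl, Gpihbp1, Lmf1, Angptl4, Vldlr, Cd36, Fabp3, Fabp4 and Fabp5. They were chosen by symbol from 29072 symbols with an Entrez identifier, and each was represented by its transcript of highest mean abundance over all libraries. RNA came from both fat depots: the interscapular brown depot (iBAT), which makes heat, and the inguinal white depot (iWAT) under the skin of the groin. Donors of the tissue were male C57BL/6J mice kept for 4 weeks in 6 groups of 8 animals. Ucp1-KO mice, which carry a disrupted gene for uncoupling protein 1, were kept on control diet at 20 °C, on high fat diet at 30 °C or on control diet at 30 °C. Wild-type mice were kept under the same conditions. Fat supplied 48% of the energy of the high fat diet and 13% of that of the control diet, and 30 °C is thermoneutral for the mouse. With both depots this gave 12 groups of 8 libraries, 96 in all. What the allele lacks of Ucp1 is not stated in the labels, and nothing in them links the pair of depots taken from any one animal.

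Fat cells take up fatty acids from circulating lipoproteins through a short chain of proteins. Lipoprotein lipase, made by adipocytes, is folded with the help of LMF1 in the endoplasmic reticulum and is carried to the capillary lumen by GPIHBP1 on endothelial cells. There it splits triglycerides, and ANGPTL4 inactivates it. VLDLR binds triglyceride-rich lipoproteins at the cell surface, CD36 takes up the freed fatty acids, and fatty acid binding proteins carry them inside the cell. Brown fat is known for taking up large amounts of lipoprotein fatty acids when an animal is cold, and white fat for storing them after meals.

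Libraries held between 8.87 M and 19.2 M reads (median 11.83 M). Values are RPKM, reads per kb of transcript and per M reads, and on 1 kb of transcript 1 read was worth 0.0521 to 0.113 RPKM. In iBAT, the transcript of Ucp1 averaged 1005, 778 and 736 RPKM in Ucp1-KO mice at 20 °C, on high fat diet and at 30 °C, against 3793, 6466 and 8227 RPKM in wild-type mice. All 12 general adipocyte markers averaged at least 1 RPKM in every group. All 12 brown adipocyte markers did so in iBAT, and 9 to 11 did in iWAT, where Zic1 lay below 1 RPKM in every group. Skeletal muscle markers, 14 genes, summed to between 4.35 and 12740 RPKM over the libraries, and 19 libraries (11 of iBAT and 8 of iWAT) lay above 2000 RPKM and are called muscle-rich. Changes are differences between group means of log2(RPKM + 1) with their standard error (SE), tested with limma. The median of all tested genes itself moved. Within a depot it ran from -0.34 between the temperatures in Ucp1-KO iBAT to 0.27 between the genotypes in iBAT at 30 °C. Between the depots it reached -0.43 in wild-type mice at 30 °C. Rescaling the libraries by their median ratio moved these within-depot medians by 0.30 and -0.25, and the median between the depots by up to 0.37. Quantile normalization moved the median between the depots by up to 0.505. Some changes of the members are therefore also given relative to the median gene.

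**Figure D1:**
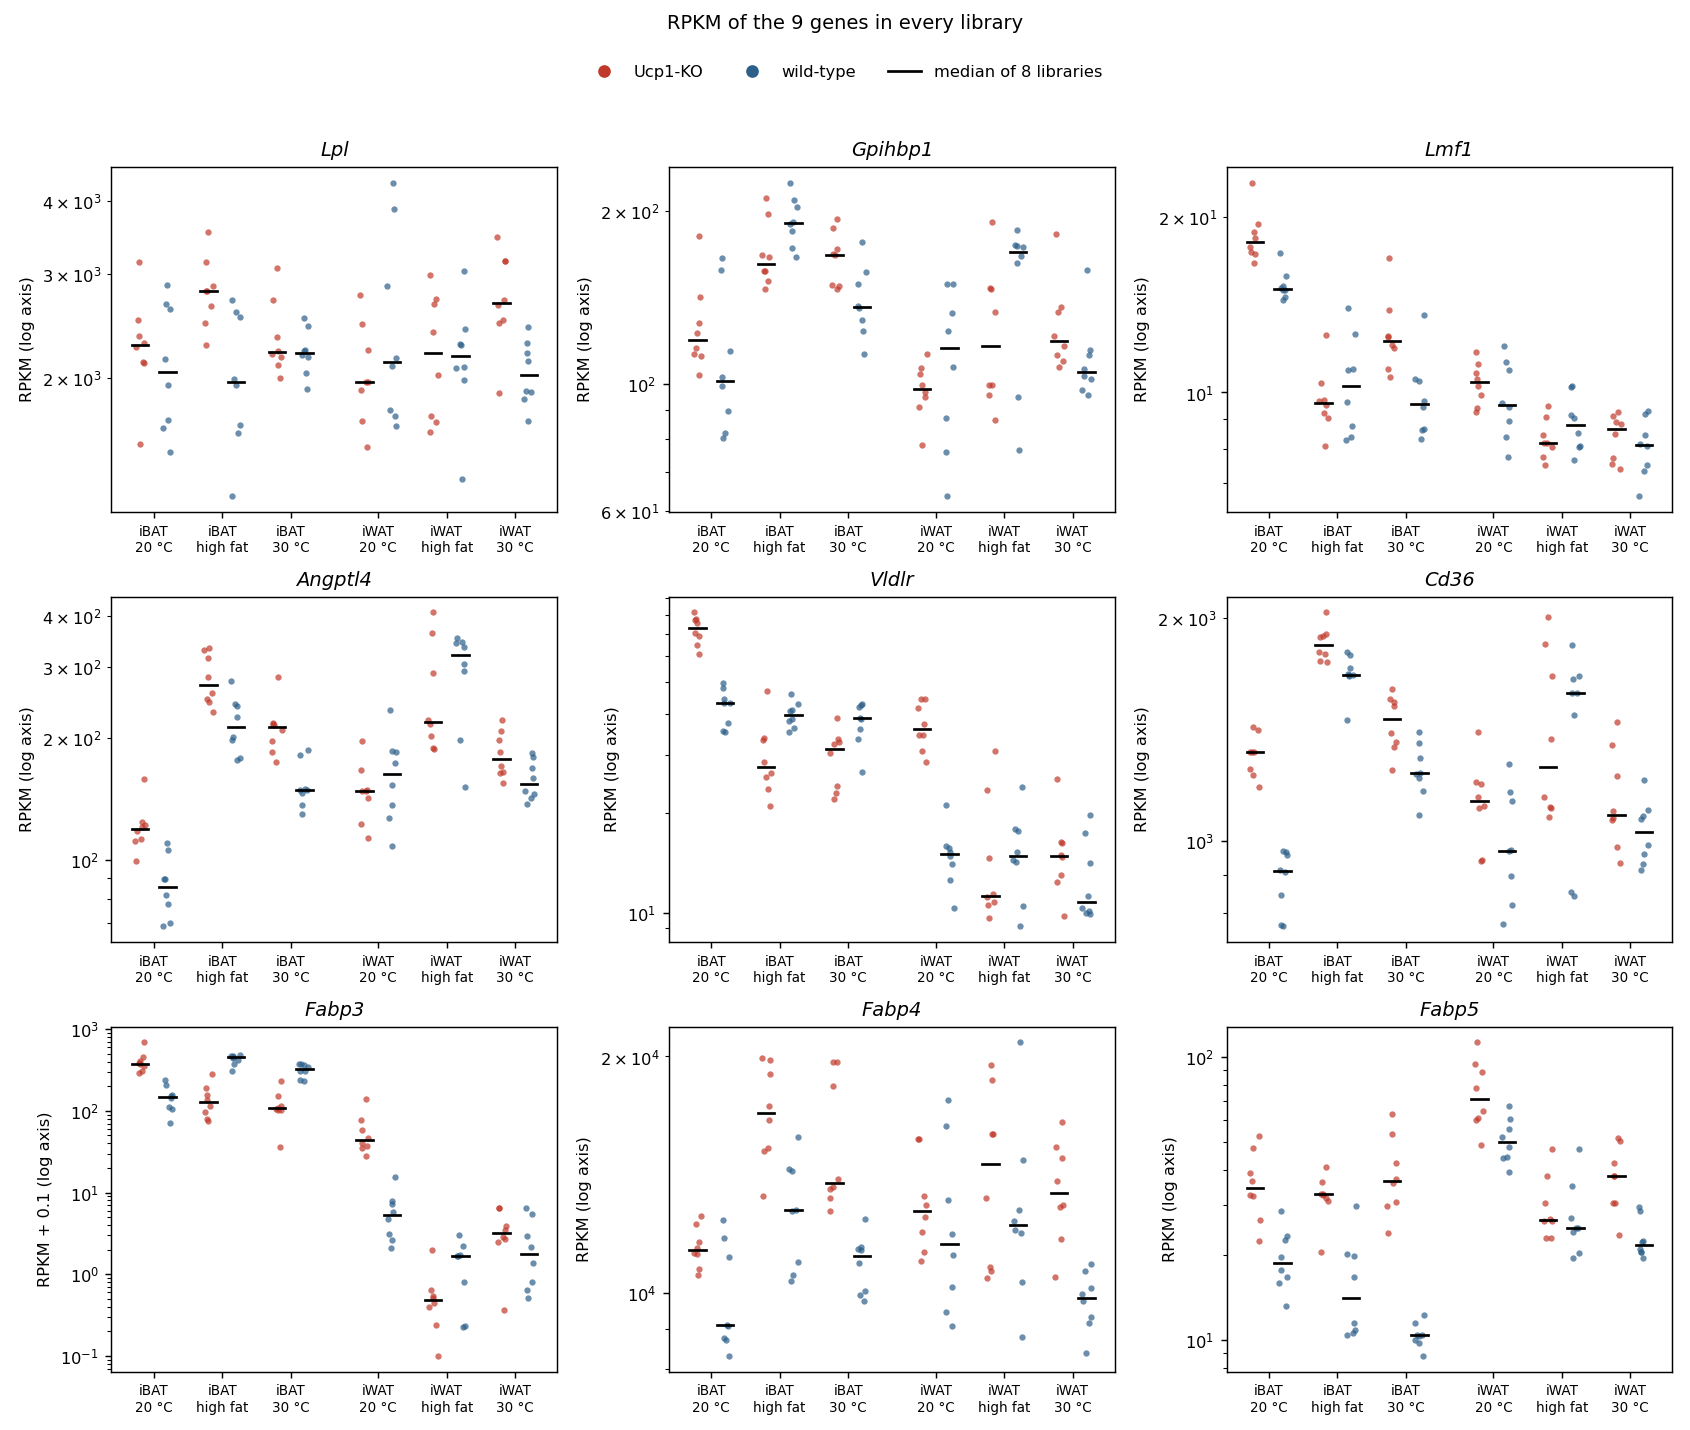
RPKM of the 9 genes in each library, on log axes (RPKM + 0.1 for Fabp3, which is listed at 0 in 1 library). Points are libraries, red for Ucp1-KO and blue for wild-type mice, and bars are medians of 8. Fabp3 and Vldlr show separate point clouds for Ucp1-KO and wild-type mice at 20 °C in both depots, while the clouds of Lpl overlap everywhere.

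Lpl, the lipase itself, was among the most abundant of these transcripts and, with the transcript used, was called in the fewest comparisons. Its group means were highest, at 2823 RPKM, in Ucp1-KO iBAT and lowest, at 2042 RPKM, in wild-type iBAT, both with high fat feeding. None of the 11 gaps between neighbours in the order of the 12 group means exceeded the larger of their SDs. The largest genotype difference in iBAT was on high fat diet, where Lpl ran from 2275 to 3539.8 RPKM (median 2811) in Ucp1-KO mice and from 1263 to 2715 RPKM (median 1972) in wild-type mice. The ranges overlapped, with 5 Ucp1-KO libraries above every wild-type library, and Lpl rose by 0.50 ± 0.14 (SE, adjusted p = 0.00194, limma), or by 0.25 against the median gene. Under median-ratio scaling that difference was 0.19 (adjusted p = 0.271), with no call. In iWAT of Ucp1-KO mice Lpl ran from 1532 to 2773 RPKM (median 1974) at 20 °C and from 1890.4 to 3475 RPKM (median 2687) at 30 °C. These ranges also overlapped, and Lpl fell by 0.41 ± 0.17 (adjusted p = 0.0365), or by 0.16 against the median gene. That fall was no longer past the threshold under 6 of the 9 other settings. The transcript used for Lpl correlated with the RefSeq coding transcript at r = 0.902 over the libraries. Its lowest r with the 15 other transcripts averaging at least 1 RPKM was 0.228. Between the genotypes in iBAT at 20 °C it gave no call. There Lpl was called higher in Ucp1-KO mice with the RefSeq coding transcript (0.28, adjusted p = 0.026) and with summed transcripts (0.35, adjusted p = 0.00353).

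Lmf1, the chaperone needed for an active lipase, was the scarcest member in iBAT and was higher in the cold in all 4 combinations of depot and genotype. In Ucp1-KO iBAT it ran from 16.7 to 22.9 RPKM (median 18.1) at 20 °C and from 10.6 to 17.0 RPKM (median 12.3) at 30 °C. In wild-type iBAT it ran from 14.4 to 17.3 RPKM (median 15.0) at 20 °C and from 8.34 to 13.6 RPKM (median 9.55) at 30 °C. In Ucp1-KO mice 7 of 8 cold libraries lay above all warm ones, and in wild-type mice the groups did not overlap. Lmf1 rose by 0.52 ± 0.09 (adjusted p = 1.74e-06) in Ucp1-KO iBAT and by 0.59 ± 0.09 (adjusted p = 7.44e-07) in wild-type iBAT. Between these rises the difference was -0.066 ± 0.13 (adjusted p = 0.688), with no call. In iWAT it rose by 0.28 ± 0.07 (adjusted p = 0.0011) in Ucp1-KO and by 0.24 ± 0.07 (adjusted p = 0.0145) in wild-type mice. Without the muscle-rich libraries, the rise in wild-type iWAT was 0.15 (adjusted p = 0.225), with no call. The response in iBAT minus that in iWAT was 0.25 ± 0.12 (adjusted p = 0.104) in Ucp1-KO mice, not called, and 0.35 ± 0.12 (adjusted p = 0.0256) in wild-type mice, a call lost under quantile normalization. High fat diet lowered Lmf1 in Ucp1-KO iBAT, where it ran from 8.11 to 12.6 RPKM (median 9.59) on high fat diet against 10.6 to 17.0 RPKM on control diet, a fall of 0.34 ± 0.09 (adjusted p = 0.00662). In wild-type iBAT the change with diet was 0.062 ± 0.09 and was not called. The genotype difference at 30 °C, 0.33 ± 0.09 (adjusted p = 0.00164), was 0.059 against the median gene and turned to -0.044 under quantile normalization.

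Gpihbp1, the capillary anchor of the lipase, was lower in the cold and higher on high fat diet in iBAT. At 20 °C it ran from 103.5 to 181 RPKM (median 119) in Ucp1-KO iBAT and from 80.5 to 165.6 RPKM (median 101) in wild-type iBAT. At 30 °C it ran from 146.2 to 193.8 RPKM (median 168) in Ucp1-KO iBAT and from 112.8 to 177.1 RPKM (median 136.4) in wild-type iBAT. The temperature groups overlapped in both genotypes. Gpihbp1 fell by 0.40 ± 0.12 (adjusted p = 0.0022) in Ucp1-KO iBAT, although median-ratio scaling gave 0.021, and by 0.36 ± 0.12 (adjusted p = 0.0094) in wild-type iBAT, where that scaling gave -0.20 and no call. With high fat feeding wild-type iBAT held 166.7 to 224.6 RPKM (median 191.1), and 6 of 8 libraries lay above all on control diet. That rise of 0.46 ± 0.12 (adjusted p = 0.00173) kept its direction and call under all 9 other settings. In Ucp1-KO iBAT the difference with diet was 0.023 ± 0.12 and was not called, and the genotypes did not differ past the threshold in their diet response (-0.44 ± 0.17, adjusted p = 0.0972).

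The endothelial markers moved in the direction of Gpihbp1 with temperature in iBAT of both genotypes and with diet in wild-type iBAT. In Ucp1-KO iBAT at 30 °C their median sum was 654 RPKM on high fat and 551 RPKM on control diet, where Gpihbp1 was not called. All 12 endothelial markers averaged at least 1 RPKM in every group. Summed over the list in iBAT, they spanned 284 to 431 RPKM for Ucp1-KO mice at 20 °C, against 225 to 352 RPKM for wild-type mice. With high fat feeding the sum spanned 489 to 756 RPKM (Ucp1-KO) against 535 to 739 RPKM (wild-type), and at 30 °C 443 to 697 RPKM (Ucp1-KO) against 366 to 485 RPKM (wild-type). The ratio of Gpihbp1 to this sum averaged 0.382 ± 0.021 (SD, n = 8) in Ucp1-KO iBAT at 20 °C, 0.2655 ± 0.029 on high fat diet and 0.297 ± 0.037 at 30 °C. In wild-type iBAT it averaged 0.406 ± 0.050 at 20 °C, 0.297 ± 0.022 on high fat diet and 0.344 ± 0.028 at 30 °C. In both genotypes the mean ratio was thus higher in the cold and lower on high fat diet than on control diet at 30 °C, the other way round from Gpihbp1 itself in wild-type iBAT. Fewer endothelial cells and less RNA per cell cannot be told apart in these bulk samples, here or for any other gene and cell type, and the part of cell numbers in the change of Gpihbp1 was not tested.

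Angptl4, the inhibitor of the lipase, was lower in the cold in iBAT, higher on high fat diet in both depots and higher in Ucp1-KO than in wild-type iBAT. In Ucp1-KO iBAT it ran from 99.4 to 158.2 RPKM (median 119.2) at 20 °C, from 232.1 to 333 RPKM (median 270.9) on high fat diet and from 174.8 to 283 RPKM (median 212.4) at 30 °C. In wild-type iBAT it ran from 68.6 to 110.2 RPKM (median 85.7) at 20 °C, from 176.9 to 276.4 RPKM (median 213.3) on high fat diet and from 129.7 to 186.4 RPKM (median 148.8) at 30 °C. No cold library overlapped a warm one in either genotype. The falls with cold were 0.81 ± 0.10 (adjusted p = 3.29e-09) in Ucp1-KO and 0.83 ± 0.10 (adjusted p = 1.19e-08) in wild-type iBAT, with an interaction of 0.018 ± 0.15 that was not called. Angptl4 rose on high fat diet by 0.40 ± 0.10 (adjusted p = 0.00531) in Ucp1-KO iBAT and by 0.49 ± 0.10 (adjusted p = 0.000235) in wild-type iBAT. The call in Ucp1-KO iBAT was lost without the muscle-rich libraries (0.34, adjusted p = 0.0712). The genotype differences in iBAT were 0.48 at 20 °C, 0.37 on high fat diet and 0.46 at 30 °C, and relative to the median gene 0.42, 0.12 and 0.19. Those on high fat diet and at 30 °C each lost their call under 1 of the 9 other settings.

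In iWAT no difference of Angptl4 between the temperatures was called. It ran from 113.3 to 196.2 RPKM (median 148.1) at 20 °C and from 154.6 to 221.7 RPKM (median 177.4) at 30 °C in Ucp1-KO mice, and from 108.3 to 234.7 RPKM (median 163.1) and 137.6 to 184.1 RPKM (median 153.5) at these temperatures in wild-type mice. The ranges overlapped in both genotypes, and the temperature response of iBAT was below that of iWAT, with differences of -0.50 ± 0.19 in Ucp1-KO mice (adjusted p = 0.0445) and -0.84 ± 0.19 in wild-type mice (adjusted p = 0.000682). The call in Ucp1-KO mice was lost under 3 of 9 settings. High fat diet brought iWAT to 187.6 to 408.1 RPKM (median 219.4) in Ucp1-KO mice and 151.2 to 353.4 RPKM (median 320.3) in wild-type mice. The rises against control diet were 0.45 ± 0.16 (adjusted p = 0.032) in Ucp1-KO mice and 0.83 ± 0.16 (adjusted p = 0.000254) in wild-type mice, with overlapping ranges in both, and the call in Ucp1-KO mice was lost under 2 of 9 settings. The ratio of Angptl4 to Lpl, an inhibitor against its target on the RPKM scale, averaged 0.054 ± 0.012 (SD) at 20 °C, 0.101 ± 0.016 on high fat diet and 0.0918 ± 0.018 at 30 °C in Ucp1-KO iBAT. In wild-type iBAT it averaged 0.0414 ± 0.0059, 0.114 ± 0.044 and 0.0698 ± 0.013 under these conditions (n = 8 each).

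Vldlr, a receptor for triglyceride-rich lipoproteins, was highest in cold Ucp1-KO mice in each depot. In iBAT at 20 °C it ran from 60.7 to 81.3 RPKM (median 72.9) in Ucp1-KO mice and from 35.2 to 49.7 RPKM (median 43.3) in wild-type mice. At 30 °C it ran from 22.2 to 38.8 RPKM (median 31.4) in Ucp1-KO iBAT and from 26.7 to 42.8 RPKM (median 38.8) in wild-type iBAT. The cold Ucp1-KO libraries lay above all others of either comparison. Vldlr was 0.76 ± 0.11 higher in Ucp1-KO than in wild-type iBAT at 20 °C (adjusted p = 4.01e-07), but lower at 30 °C (log2 change -0.34 ± 0.11, adjusted p = 0.00788) and on high fat diet (-0.43 ± 0.11, adjusted p = 0.000966). Cold raised it by 1.27 ± 0.11 in Ucp1-KO iBAT (adjusted p = 2.28e-13), against 0.16 ± 0.11 in wild-type iBAT, where no call was made. Under median-ratio scaling the rise in wild-type iBAT was 0.32 and was called (adjusted p = 0.0313). Without the muscle-rich libraries Vldlr averaged 41.9 ± 5.9 RPKM (SD, n = 7) at 20 °C and 34.8 ± 5.0 RPKM (n = 5) at 30 °C in wild-type iBAT. The interaction of genotype and temperature was 1.11 ± 0.16 (adjusted p = 3.4e-07).

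In iWAT, Vldlr was also highest in cold Ucp1-KO mice. It ran from 28.6 to 44.4 RPKM (median 35.9) in Ucp1-KO mice and from 10.3 to 21.2 RPKM (median 15.1) in wild-type mice at 20 °C, with no overlap, and from 9.74 to 25.4 RPKM (median 14.8) and 9.92 to 19.7 RPKM (median 10.8) in these genotypes at 30 °C. The genotype difference at 20 °C was 1.26 ± 0.19 (adjusted p = 5.3e-07) and the interaction with temperature was 1.02 ± 0.27 (adjusted p = 0.0107). The lower Vldlr of Ucp1-KO iBAT in the warm had no called counterpart in iWAT, where the genotype differences were 0.24 (adjusted p = 0.35) at 30 °C and -0.070 (adjusted p = 0.988) on high fat diet. All 14 calls made for Vldlr kept their direction and call under all 9 other settings. In wild-type iWAT at 30 °C the 3 muscle-rich libraries held 19.7, 14.2 and 17.5 RPKM of Vldlr, the highest values of their group. Without the muscle-rich libraries wild-type iWAT averaged 14.9 ± 3.3 RPKM (SD, n = 7) at 20 °C and 10.3 ± 0.55 RPKM (n = 5) at 30 °C. The part of muscle in the values of Vldlr was not tested.

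Cd36, the fatty acid translocase of the plasma membrane, rose on high fat diet in iBAT and was lower in the cold there. In Ucp1-KO iBAT it ran from 1184 to 1424 RPKM (median 1317) at 20 °C, from 1742 to 2033 RPKM (median 1839.6) on high fat diet and from 1248 to 1602 RPKM (median 1459) at 30 °C. In wild-type iBAT it ran from 769 to 969.7 RPKM (median 912) at 20 °C, from 1458 to 1798 RPKM (median 1675) on high fat diet and from 1085 to 1404 RPKM (median 1235) at 30 °C. The high fat libraries did not overlap those on control diet in either genotype, and at 20 °C the genotypes did not overlap. Cd36 rose on high fat diet by 0.36 ± 0.07 (adjusted p = 0.000127) in Ucp1-KO and by 0.43 ± 0.07 (adjusted p = 2.25e-06) in wild-type iBAT. It fell in the cold by 0.49 ± 0.07 (adjusted p = 4.93e-08) in wild-type iBAT. In Ucp1-KO iBAT the difference was -0.14 ± 0.07 (adjusted p = 0.0489), 0.19 against the median gene, and it turned to 0.28 under median-ratio scaling and lost its call under 4 others. The interaction was 0.35 ± 0.09 (adjusted p = 0.00179), and without the muscle-rich libraries it was 0.25 (adjusted p = 0.0595), with no call. At 20 °C Cd36 was higher by 0.56 ± 0.07 in Ucp1-KO than in wild-type iBAT (adjusted p = 2.21e-09), while the difference of 0.21 ± 0.066 at 30 °C turned to -0.13 under median-ratio scaling. In iWAT the one call was the rise on high fat diet in wild-type mice, 0.43 ± 0.14 (adjusted p = 0.0387), which 5 of 9 settings lost.

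Fabp3, the heart-type fatty acid binding protein also made in muscle and brown fat, changed more than any other member. In Ucp1-KO iBAT it ran from 288.5 to 690.4 RPKM (median 377.4) at 20 °C, from 75.2 to 280.6 RPKM (median 126.5) on high fat diet and from 35.8 to 230.8 RPKM (median 106.9) at 30 °C. In wild-type iBAT it ran from 71.4 to 240.7 RPKM (median 148.1) at 20 °C, from 303.1 to 475.4 RPKM (median 449.7) on high fat diet and from 229.2 to 374.5 RPKM (median 324.5) at 30 °C. The order of the temperatures was thus turned round between the genotypes: Fabp3 was 1.87 ± 0.25 higher at 20 °C than at 30 °C in Ucp1-KO iBAT (adjusted p = 5.05e-09), and it fell by 1.16 ± 0.25 in wild-type iBAT (adjusted p = 0.000133). At 20 °C the genotypes did not overlap, and Fabp3 was 2.75-fold higher by group means in Ucp1-KO iBAT (log2 change 1.495 ± 0.25, adjusted p = 2.72e-06). At 30 °C it was lower in Ucp1-KO iBAT (log2 change -1.53 ± 0.25, adjusted p = 6.05e-07), with 7 of 8 libraries below all wild-type ones, and with high fat feeding as well (-1.695 ± 0.25, adjusted p = 8.72e-08), with no overlap. The interaction of genotype and temperature was 3.03 ± 0.35 (adjusted p = 2.08e-09).

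In iWAT, Fabp3 was low except in cold Ucp1-KO mice. It ran from 28.3 to 137.9 RPKM (median 43.4) in Ucp1-KO mice and from 2.02 to 15.6 RPKM (median 5.15) in wild-type mice at 20 °C. At 30 °C it ran from 0.261 to 6.35 RPKM (median 3.09) in Ucp1-KO mice and from 0.408 to 6.42 RPKM (median 1.67) in wild-type mice. Fed the high fat diet, iWAT held 0 to 1.88 RPKM (median 0.379) in Ucp1-KO mice and 0.124 to 2.95 RPKM (median 1.56) in wild-type mice. These lowest values stand for a few reads, and their changes depend on the pseudocount of 1 RPKM. Fabp3 was 9.51-fold higher by group means in Ucp1-KO than in wild-type iWAT at 20 °C (log2 change 3.08 ± 0.36, adjusted p = 2.99e-09), and every Ucp1-KO library lay above every wild-type one. Cold raised it by 3.69 ± 0.36 in Ucp1-KO iWAT (adjusted p = 3.69e-11) and by 1.08 ± 0.36 in wild-type iWAT (adjusted p = 0.0293), a difference of 2.61 ± 0.51 (adjusted p = 0.00102). The call in wild-type iWAT was lost under 3 of 9 settings, with adjusted p of 0.0533 to 0.0559.

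Markers of other cells were measured beside Fabp3. Skeletal muscle also makes Fabp3, and the 14 muscle markers ran, as a sum, from 305 to 3561 RPKM in Ucp1-KO iBAT at 20 °C and from 118 to 4536 RPKM in wild-type iBAT. In iWAT at 20 °C the sum spanned 33.8 to 4529 RPKM for the Ucp1-KO group and 11.9 to 2228 RPKM for the wild-type group, and 10 and 11 of the 14 markers averaged at least 1 RPKM there. Without the 19 libraries above 2000 RPKM, Fabp3 averaged 367 ± 57 RPKM (SD, n = 7) in Ucp1-KO iBAT at 20 °C and 132 ± 55 RPKM (n = 5) at 30 °C, and 154 ± 56 RPKM (n = 7) at 20 °C and 317 ± 58 RPKM (n = 5) at 30 °C in wild-type iBAT. In iWAT without them it averaged 60.7 ± 38 RPKM (n = 7) in Ucp1-KO and 6.24 ± 4.7 RPKM (n = 7) in wild-type mice at 20 °C. The iWAT library with the most Fabp3, at 137.9 RPKM, held 99.6 RPKM of muscle markers. Brown adipocyte markers were summed over the 11 genes of the list other than Ucp1, the disrupted gene, and that library held 3773.5 RPKM of them, the most in its group. The sum spanned 1482 to 3773.5 RPKM for Ucp1-KO iWAT at 20 °C, against 334 to 747 RPKM for wild-type iWAT, and 384 to 648 RPKM (Ucp1-KO) against 129 to 262.5 RPKM (wild-type) at 30 °C. In iBAT at 20 °C, where Fabp3 was higher in Ucp1-KO mice, it spanned 4707 to 6600.7 RPKM, against 3897 to 5935 RPKM for wild-type iBAT. In iBAT at 30 °C, where Fabp3 was lower in Ucp1-KO mice, it spanned 2109 to 4362.5 RPKM, against 3166 to 4575.5 RPKM for wild-type iBAT. At these 2 temperatures on control diet the sums overlapped between the genotypes in iBAT and did not in iWAT. In iBAT on high fat diet, where Fabp3 was also lower in Ucp1-KO mice, the sums did not overlap. They spanned 1429 to 2726.5 RPKM for Ucp1-KO and 2793 to 4754 RPKM for wild-type iBAT. In iWAT on high fat diet they overlapped, at 75.3 to 137 RPKM (Ucp1-KO) against 49.1 to 276.2 RPKM (wild-type). The part of brown adipocytes in the differences of Fabp3 was not tested.

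**Figure D2:**
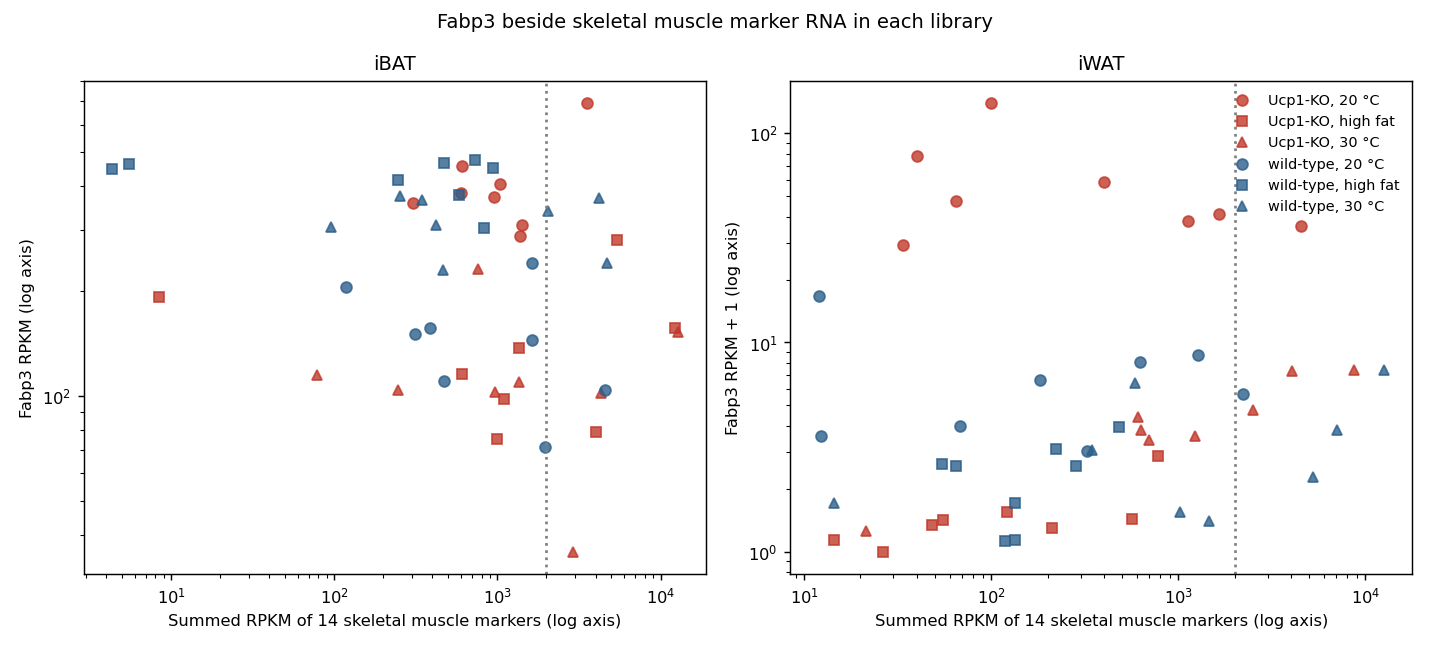
Fabp3 (RPKM in iBAT, RPKM + 1 in iWAT) against the summed RPKM of 14 skeletal muscle markers, one point per library, both axes logarithmic; colour gives genotype, shape gives condition and the dotted line marks 2000 RPKM. The cold Ucp1-KO libraries of iWAT lie above all others, at 28.3 to 137.9 RPKM of Fabp3, over a range of muscle markers from 33.8 to 4529 RPKM.

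Fabp3 and Vldlr had the 2 largest rises of the members in cold Ucp1-KO mice in each depot, so the windows around their annotated starts are shown. RefSeq (GRCm38.p6) gives windows of 300 bases, from 250 before to 50 after the start, for 4 of the 9 members, 5 windows in all, among them Vldlr with 2 windows. Fabp3 lies at chr4:130308488-130308787 and Vldlr at chr19:27216234-27216533 and chr19:27216770-27217069, all on the + strand. Capitals mark a match to a searched motif.
Fabp3: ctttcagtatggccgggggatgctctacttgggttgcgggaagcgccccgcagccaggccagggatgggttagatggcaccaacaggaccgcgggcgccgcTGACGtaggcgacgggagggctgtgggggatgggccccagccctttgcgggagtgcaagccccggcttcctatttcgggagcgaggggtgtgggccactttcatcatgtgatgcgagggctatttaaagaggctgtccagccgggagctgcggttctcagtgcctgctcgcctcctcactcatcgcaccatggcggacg
Vldlr, first window: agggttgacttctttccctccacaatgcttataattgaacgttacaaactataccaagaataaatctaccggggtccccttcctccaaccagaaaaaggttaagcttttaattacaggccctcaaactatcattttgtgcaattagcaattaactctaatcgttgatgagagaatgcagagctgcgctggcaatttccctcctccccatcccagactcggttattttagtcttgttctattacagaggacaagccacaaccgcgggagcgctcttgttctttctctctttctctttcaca
Vldlr, second window: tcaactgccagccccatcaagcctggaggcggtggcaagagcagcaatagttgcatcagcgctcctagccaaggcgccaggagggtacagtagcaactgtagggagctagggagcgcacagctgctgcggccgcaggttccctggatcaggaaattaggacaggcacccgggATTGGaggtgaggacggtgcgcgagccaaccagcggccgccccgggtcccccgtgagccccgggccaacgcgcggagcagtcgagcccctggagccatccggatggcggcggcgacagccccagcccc
The capitals in Fabp3 are TGACG, found within the cAMP response element, at -149 from the start. Those in the second Vldlr window are the CCAAT box read on the - strand, at -78. Both strands were searched for the nuclear receptor motif AGGTCA, which 16.3% of all 32851 RefSeq windows held. The motif TGACG was held by 20.8% of windows, the TATA box TATAAA by 13.6% and the box CCAAT by 37.4%. The element DR1, which repeats the nuclear receptor motif and so overlaps it, was held by 0.0396%. The first Vldlr window held none of these. Its bases were 43% G or C, against 65% in Fabp3 and 68% in the second Vldlr window and a median of 52.7% over all windows. The window of Cd36 held the nuclear receptor motif at -228 and the CCAAT box at -195, and that of Lmf1 held the cAMP motif at -187. These matches describe the letters of the windows only.

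Fabp4, the main fatty acid binding protein of adipocytes, was the most abundant member in every group. In iBAT it ran from 10546.2 to 12546.5 RPKM (median 11344) in Ucp1-KO and from 8321 to 12401 RPKM (median 9106) in wild-type mice at 20 °C. High fat feeding gave values from 13303 to 19917 RPKM (median 16946.5) in Ucp1-KO and from 10376 to 15803 RPKM (median 12742) in wild-type iBAT, and at 30 °C from 12723 to 19670.2 RPKM (median 13816) in Ucp1-KO iBAT and from 9784 to 12414 RPKM (median 11139) in wild-type iBAT. At 30 °C the genotypes did not overlap, and Fabp4 was 0.50 ± 0.13 higher in Ucp1-KO iBAT (adjusted p = 0.000742), or 0.23 against the median gene. That call was lost under 2 of 9 settings. Under high fat feeding the difference was 0.42 ± 0.13 (adjusted p = 0.00365) with 5 Ucp1-KO libraries above all wild-type ones, and in the cold Fabp4 fell in Ucp1-KO iBAT (-0.43 ± 0.13, adjusted p = 0.00282), with no overlap. Both calls were lost under 3 of 9 settings. The settings gave 0.11 to 1.12 for the high fat difference and -1.02 to -0.002 for the change in the cold. Median-ratio scaling gave 0.11 (adjusted p = 0.506) and -0.002 (adjusted p = 0.994), and the median gene itself moved by 0.25 and -0.34. In iWAT at 30 °C it was 0.46 ± 0.17 higher in Ucp1-KO mice (adjusted p = 0.0439), which 4 of 9 settings lost. Fabp4 made up between 94.4 and 99.9% of the summed RPKM of Fabp3, Fabp4 and Fabp5 in every library. Fabp3 took 3.39 ± 0.81% (SD, n = 8) of that sum in Ucp1-KO and 1.44 ± 0.38% in wild-type iBAT at 20 °C, and 0.740 ± 0.25% and 2.81 ± 0.43% in these genotypes at 30 °C.

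Fabp5, the epidermal type, which adipocytes and macrophages make, was higher in Ucp1-KO than in wild-type iBAT under each condition and rose with cold in iWAT of both genotypes. In Ucp1-KO iBAT it ran from 22.5 to 52.5 RPKM (median 34.5) at 20 °C, from 20.51 to 40.8 RPKM (median 32.8) on high fat diet and from 24.0 to 63.1 RPKM (median 36.5) at 30 °C. In wild-type iBAT it ran from 13.3 to 28.6 RPKM (median 18.7) at 20 °C, from 10.4 to 29.8 RPKM (median 14.1) on high fat diet and from 8.79 to 12.3 RPKM (median 10.4) at 30 °C. At 30 °C the genotypes did not overlap. The differences were 0.83 ± 0.18 at 20 °C (adjusted p = 0.000238), 1.02 ± 0.18 on high fat diet (adjusted p = 4.24e-06) and 1.77 ± 0.18 at 30 °C (adjusted p = 2.09e-11). Cold raised Fabp5 by 0.83 ± 0.18 in wild-type iBAT (adjusted p = 0.000211), with no overlap, and the change in Ucp1-KO iBAT was -0.11 ± 0.18, not called. The interaction was -0.93 ± 0.26 (adjusted p = 0.00217). Reads shared with near-identical copies of Fabp5 could not be told apart here.

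The summed RPKM of 14 macrophage markers was higher in Ucp1-KO than in wild-type iBAT under each condition, as Fabp5 was, but lower at 20 °C than at 30 °C in both genotypes, with no overlap in any of these comparisons. At 20 °C their sum spanned 131 to 414 RPKM for Ucp1-KO iBAT, against 91.3 to 128 RPKM for wild-type iBAT. With high fat feeding it spanned 606 to 1847 RPKM (Ucp1-KO) against 164 to 487 RPKM (wild-type), and at 30 °C 431 to 2266 RPKM (Ucp1-KO) against 207 to 352 RPKM (wild-type). All 14 averaged at least 1 RPKM in the Ucp1-KO groups at 30 °C, and 11 did in wild-type iBAT at 20 °C, where Fcgr1, Trem2 and Itgax were lower. Their part in the change of Fabp5 was not tested. In iWAT at 20 °C Fabp5 ran from 48.9 to 112.8 RPKM (median 71.2) in Ucp1-KO mice and from 39.2 to 67.2 RPKM (median 50.1) in wild-type mice, and at 30 °C from 23.5 to 51.8 RPKM (median 38.1) in Ucp1-KO and from 19.5 to 29.4 RPKM (median 21.7) in wild-type mice. The cold raised it by 0.97 ± 0.17 in Ucp1-KO (adjusted p = 5.03e-06) and 1.12 ± 0.17 in wild-type iWAT (adjusted p = 3.43e-06), while the macrophage sum spanned 407 to 843 RPKM at 20 °C against 672 to 1535 RPKM at 30 °C in Ucp1-KO iWAT, and 861 to 1742 RPKM at 20 °C against 1130.3 to 1992 RPKM at 30 °C in wild-type iWAT.

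The temperature comparison shows how the members moved as a set. In iBAT at 20 °C against 30 °C, 3 of 9 members rose in Ucp1-KO mice (Lmf1, Vldlr and Fabp3), where 13.9% of all genes rose. There 4 fell (Gpihbp1, Angptl4, Cd36 and Fabp4), where 59.5% fell. Median-ratio scaling turned Gpihbp1 and Cd36 to 0.021 and 0.28, brought Fabp4 to -0.002 and gave 5 higher and 1 lower. In wild-type iBAT 2 rose (Lmf1 and Fabp5), against 11.6% of all genes, and 4 fell (Gpihbp1, Angptl4, Cd36 and Fabp3), against 33% of all genes, while median-ratio scaling gave 3 higher and 3 lower. The members' median change was -0.11 in Ucp1-KO and -0.15 in wild-type mice, against -0.34 and -0.12 for all genes. In iWAT 4 rose in Ucp1-KO mice (Lmf1, Vldlr, Fabp3 and Fabp5), where 9.02% of all genes rose, and 1, Lpl, fell, where 51.4% did; median-ratio scaling gave 4 higher and 0 lower. In wild-type iWAT 3 rose (Lmf1, Fabp3 and Fabp5) against 7.25% of all genes and 0 fell against 12.4%. The medians of the members were -0.015 and 0.23, against -0.25 and -0.10 for all genes.

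**Figure D3:**
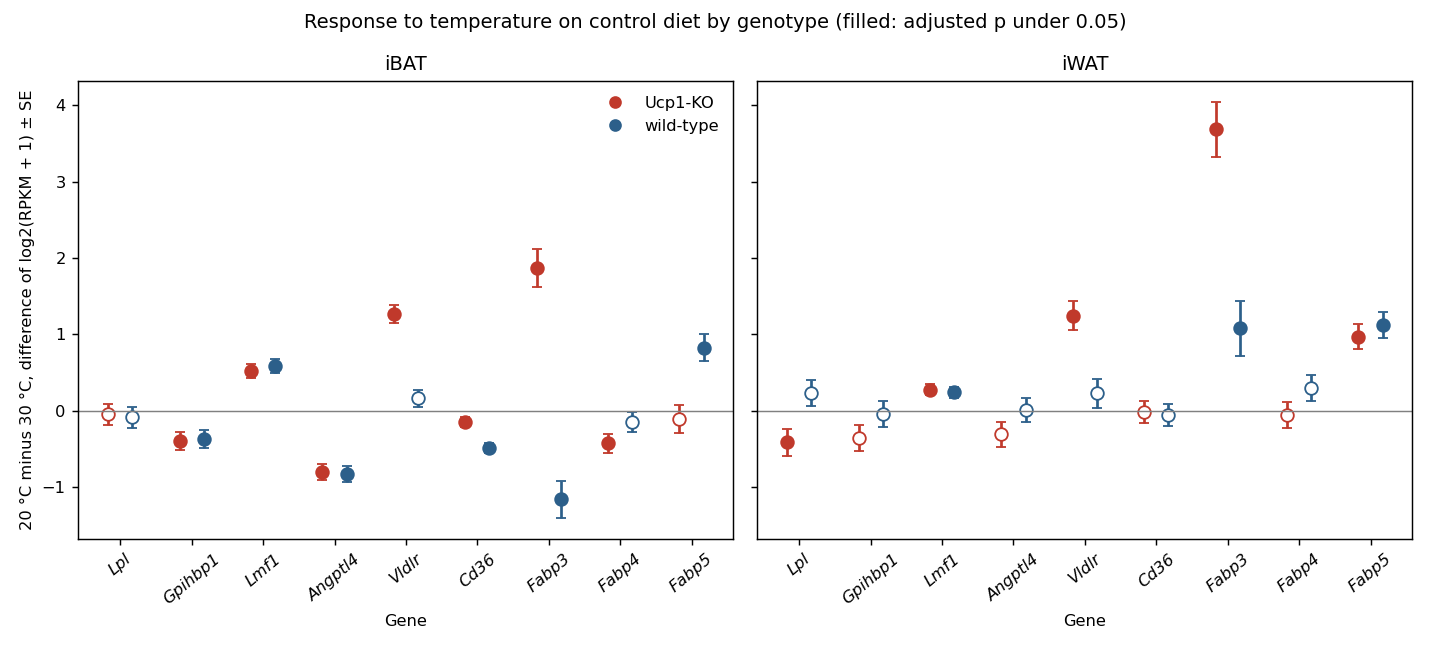
Change of each gene at 20 °C against 30 °C on control diet, as the difference of log2(RPKM + 1) ± SE, in iBAT and iWAT; red is Ucp1-KO, blue is wild-type, and filled points passed an adjusted p of 0.05 with limma. Fabp3 rose by 1.87 in Ucp1-KO iBAT and fell by 1.16 in wild-type iBAT, and Vldlr rose by 1.27 and 1.25 in Ucp1-KO iBAT and iWAT; the small falls of Gpihbp1 and Cd36 in Ucp1-KO iBAT turned to rises of 0.021 and 0.28 under median-ratio scaling.

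Between the genotypes in iBAT, 6 of 9 members were higher in Ucp1-KO mice at 20 °C (Lmf1, Angptl4, Vldlr, Cd36, Fabp3 and Fabp5), against 24.7% of all genes, and 0 were lower, against 13.1%; the call of Lmf1 was lost under 4 of 9 settings. The members' median was 0.48 against 0.057 for all genes. At 30 °C 5 were higher, against 54.2% of all genes, a share near that of the background (among them Lmf1 and Cd36, which turned to -0.044 under quantile normalization and -0.13 under median-ratio scaling), and 2 (Vldlr and Fabp3) were lower against 10.5%. Median-ratio scaling gave 1 higher and 2 lower there, and quantile normalization 3 higher and 2 lower. The medians there were 0.25 and 0.27. With high fat feeding 4 were higher (Lpl, Angptl4, Fabp4 and Fabp5), against 52.8%, and again Vldlr and Fabp3 were lower, against 11%, with medians of 0.14 and 0.25. Median-ratio scaling gave 1 higher (Fabp5) and 5 lower (Gpihbp1, Lmf1, Vldlr, Cd36 and Fabp3) in that comparison, and quantile normalization 4 higher and 4 lower. In iWAT at 20 °C 3 were higher (Vldlr, Fabp3 and Fabp5) against 9.85% of all genes and 0 lower against 55%, or 4 higher and 1 lower with quantile normalization. Median-ratio scaling added Lmf1 (0.43), Cd36 (0.56) and Fabp4 (0.48) as higher there. At 30 °C 2 were higher (Fabp4 and Fabp5) against 7.54%, and 0 lower against 16.2%, and both calls were lost without the muscle-rich libraries. With high fat feeding limma called 0 higher and 0 lower, against 0.195% and 0.0881% of all genes, and 0 members had an unadjusted p under 0.05.

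The response to temperature depended on genotype for 4 members in iBAT: 3 were higher (Vldlr, Cd36 and Fabp3), against 11.9% of all genes, and Fabp5 was lower, against 40.5%. The call of Cd36 was lost without the muscle-rich libraries, and quantile normalization gave 3 higher and 2 lower. In iWAT 2 were higher (Vldlr and Fabp3), against 2.15%, and 0 lower, against 11.1%.

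Diet moved fewer members. High fat against control diet raised 2 in Ucp1-KO iBAT (Angptl4 and Cd36) against 8.35% of all genes, and lowered Lmf1 against 8.02%. In wild-type iBAT 4 rose (Gpihbp1, Angptl4, Cd36 and Fabp5) against 18.5%, and 0 fell against 14.5%. The members' median was 0.43 against 0.019 for all genes. The call of Fabp5 was lost without the muscle-rich libraries (0.505, adjusted p = 0.0552). Lpl was called lower there with the RefSeq coding transcript (-0.37, adjusted p = 0.00404) and with summed transcripts (-0.41, adjusted p = 0.00102). In Ucp1-KO iWAT Angptl4 rose against 16.1% of all genes and Fabp3 fell by 1.48 ± 0.36 (adjusted p = 0.00187) against 8.31%; median-ratio scaling gave 0 higher and 1 lower, and quantile normalization 1 higher and 2 lower. Without the muscle-rich libraries the change of Fabp3 was -1.08 (adjusted p = 0.0601), with no call. Summed muscle markers reached 774 RPKM at most in Ucp1-KO iWAT on high fat diet, against 8684.5, 4068.5 and 2511 RPKM in 3 libraries on control diet at 30 °C, which held 6.35, 6.34 and 3.77 RPKM of Fabp3, the highest values of their group. The part of muscle in this fall was not tested. In wild-type iWAT 2 rose (Angptl4 and Cd36) against 9.69%, and 0 fell against 3.84%. Tests of the difference of the diet response between genotypes called 0 higher and 1 lower (Lmf1, -0.40 ± 0.13, adjusted p = 0.0473) in iBAT, against 2.78% and 3.78% of all genes, and Lmf1 was lost under 7 of 9 settings. Lpl was called higher in that test with the RefSeq coding transcript (0.46, adjusted p = 0.0374) and with summed transcripts (0.48, adjusted p = 0.0299). In iWAT limma called 0 higher and 0 lower, against 0.101% and 1.23%, and 2 members had an unadjusted p under 0.05.

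**Figure D4:**
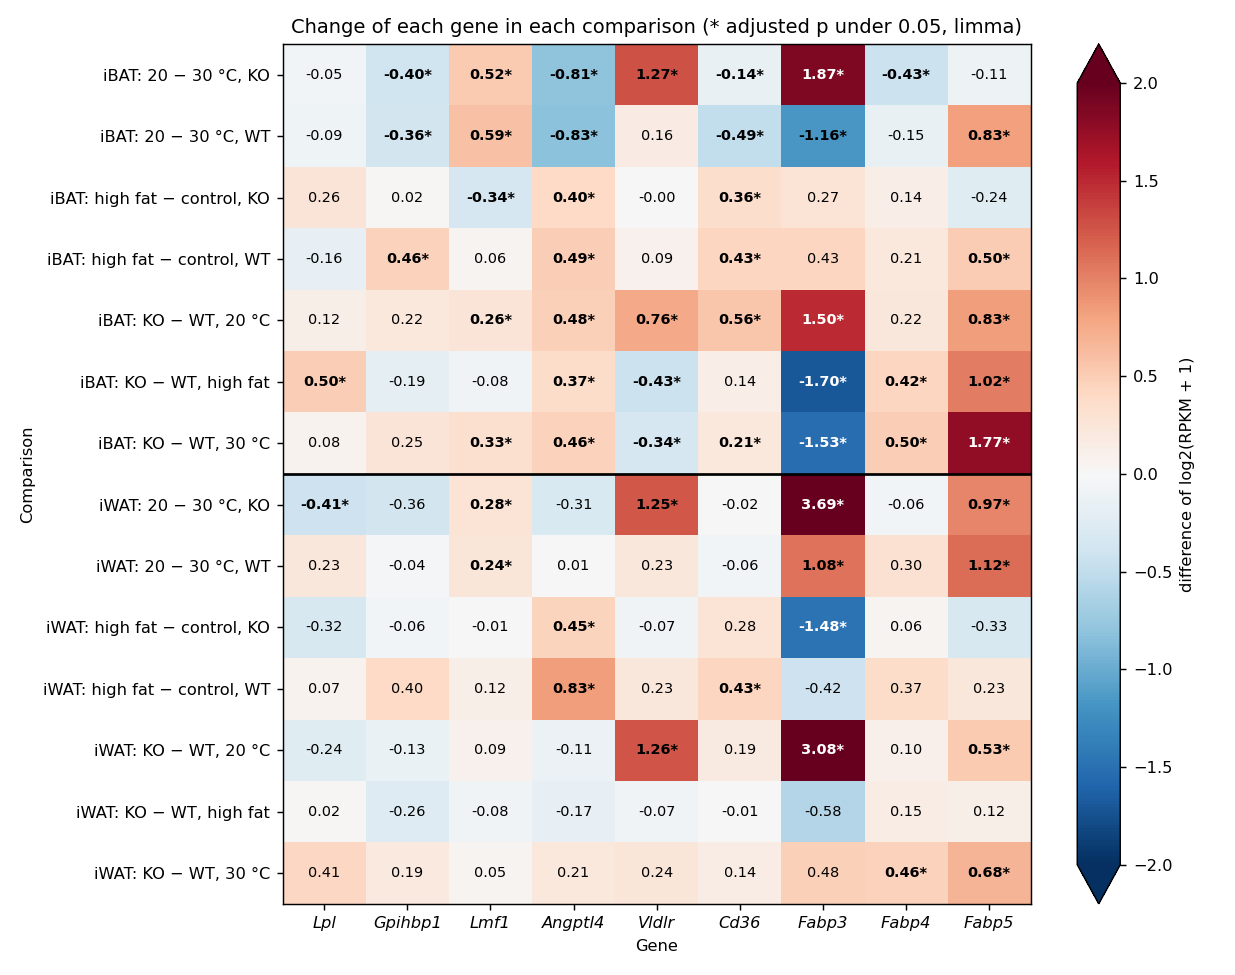
Difference of log2(RPKM + 1) of each gene (columns) in each comparison (rows) of iBAT (above the line) and iWAT (below it); colour and number give the change, red for higher in the group named before the minus sign, and an asterisk marks an adjusted p under 0.05 with limma. Fabp3 holds the largest changes, up to 3.69, and Lpl 2 called changes of 0.50 and -0.41; the Gpihbp1 and Cd36 falls of -0.40 and -0.14 in cold Ucp1-KO iBAT turn to 0.021 and 0.28, and Cd36 (0.21, KO − WT, 30 °C) to -0.13, under median-ratio scaling, and Lmf1 (0.33) to -0.044 under quantile normalization.

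Both depots came from the same mice, and since no label pairs their libraries, the tests between depots treated them as independent. Between the depots, Fabp3, Vldlr and Lmf1 were higher in iBAT than in iWAT in all 6 combinations of genotype and condition, and Fabp5 was lower in 4 of them. Fabp3 differed most, by 2.94 ± 0.31 in Ucp1-KO mice at 20 °C and 4.52 ± 0.31 in wild-type mice at 20 °C, and by 4.76 ± 0.31 and 6.76 ± 0.31 at 30 °C. No iBAT library overlapped an iWAT library of its group for Fabp3. Vldlr was 0.95 ± 0.16 higher in Ucp1-KO and 1.44 ± 0.16 higher in wild-type mice at 20 °C, with no overlap in either. Lmf1 was 0.78 ± 0.08 and 0.60 ± 0.08 higher in these genotypes at 20 °C, also with no overlap. Fabp5 was lower in iBAT at 20 °C, with changes of -1.05 ± 0.18 in Ucp1-KO and -1.355 ± 0.18 in wild-type mice, and of -1.06 ± 0.18 in wild-type mice at 30 °C, while in Ucp1-KO mice at 30 °C its difference was 0.030 ± 0.18.

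Of the 9 members, 4 were higher in iBAT of Ucp1-KO mice at 20 °C against 20.2% of all genes, and 1 lower against 42.7%, or 3 higher and 2 lower with quantile normalization. With high fat feeding 6 were higher against 24.5% and 0 lower against 45%, and at 30 °C 5 were higher against 26.3% and 0 lower against 35.8%. In wild-type mice at 20 °C 3 were higher against 15.8% and 2 lower (Angptl4 and Fabp5) against 64.4%; median-ratio scaling gave 6 higher and 2 lower, and quantile normalization 3 higher and 4 lower. Under high fat feeding 5 were higher against 16.7% and 2 lower against 61.9%, where the difference of Angptl4, -0.38 ± 0.14, turned to 0.13 under median-ratio scaling, which gave 7 higher and 0 lower. At 30 °C 5 were higher against 19.5% and 1 lower against 61.8%, or 4 higher and 3 lower with quantile normalization. Median-ratio scaling added Lpl (0.64), Angptl4 (0.47) and Fabp4 (0.68) as higher there. The medians of the members were 0.21, 0.36 and 0.34 in Ucp1-KO mice at 20 °C, on high fat diet and at 30 °C, and -0.16, 0.20 and 0.26 in wild-type mice, against all-gene medians of -0.15, -0.16 and -0.072 and of -0.43, -0.40 and -0.43.

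**Figure D5:**
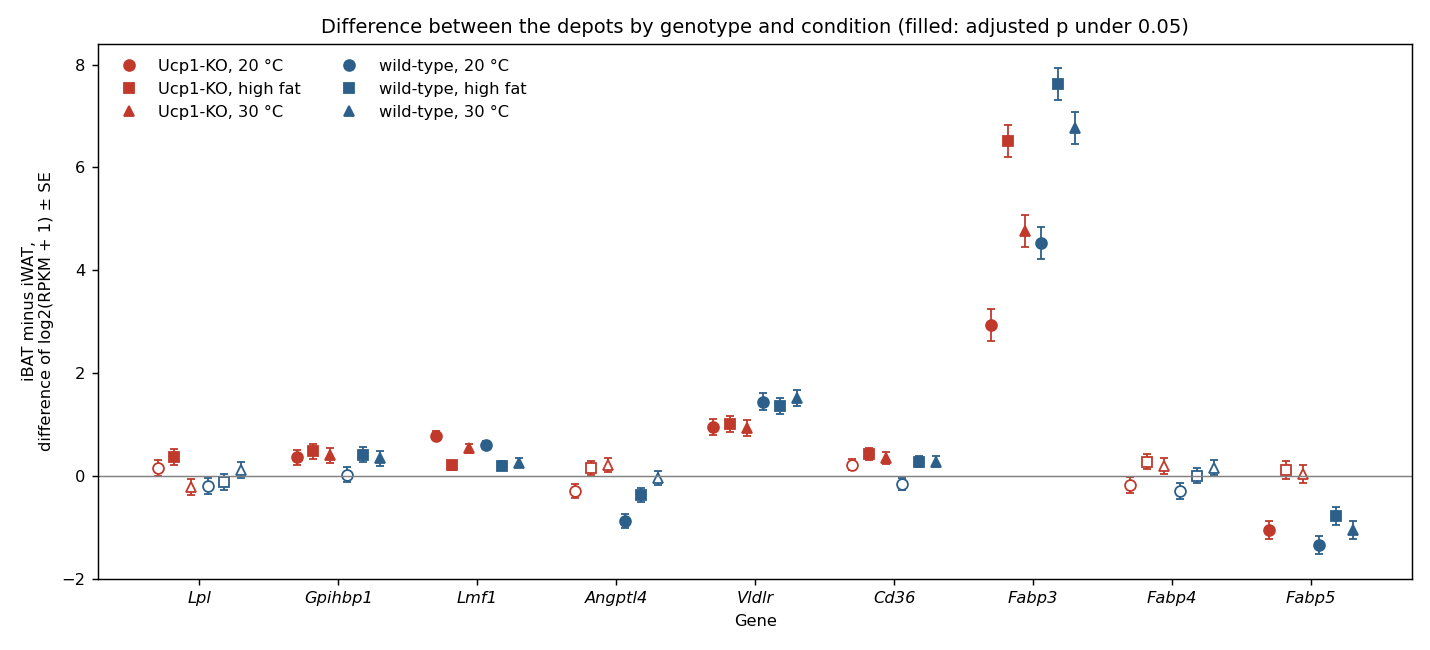
Difference between iBAT and iWAT in log2(RPKM + 1) ± SE for each gene, by genotype (red Ucp1-KO, blue wild-type) and condition (circle 20 °C, square high fat diet, triangle 30 °C); filled points passed an adjusted p of 0.05 with limma. Fabp3 reaches 7.62 in wild-type mice on high fat diet and is 2.94 in cold Ucp1-KO mice; the fall of Angptl4 in wild-type mice on high fat diet (-0.38) turns to 0.13 under median-ratio scaling.

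The response to cold also differed between the depots. In Ucp1-KO mice 0 members had a higher response in iBAT, against 6.7% of all genes, and 3 a lower one (Angptl4, Fabp3 and Fabp5), against 18.8%, or 1 higher and 2 lower under median-ratio scaling. In wild-type mice 1 was higher (Lmf1), against 5.07%, and 3 lower (Angptl4, Cd36 and Fabp3), against 11.7%, or 0 higher and 4 lower with quantile normalization; the call of Cd36 was lost under 4 of 9 settings. For Fabp3 the difference was -1.82 ± 0.44 (adjusted p = 0.000906) in Ucp1-KO and -2.24 ± 0.44 (adjusted p = 7.72e-05) in wild-type mice. The response to diet differed for 1 member higher (Fabp3, 1.75 ± 0.44, adjusted p = 0.00591) in Ucp1-KO mice, against 3.13% of all genes, and 0 lower, against 6.13%. That call was lost without the muscle-rich libraries (0.988, adjusted p = 0.329) and without the libraries that stand apart (1.42, adjusted p = 0.0584). In wild-type mice limma called 0 higher and 0 lower, against 6.39% and 9.73%, and 0 members had an unadjusted p under 0.05.

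Other genes of the pathway were followed in 4 lists, chosen with earlier results of these data known. Of 17 tested genes that assist, inhibit or resemble the lipase, 2 rose and 11 fell in Ucp1-KO iBAT at 20 °C against 30 °C, where 13.9% of all genes rose and 59.5% fell. In wild-type iBAT 1 rose and 6 fell, where 11.6% of all genes rose and 33% fell. Among them Apoe, an apolipoprotein, fell by 3.35 ± 0.17 in Ucp1-KO iBAT (adjusted p = 4.92e-21), to 191 ± 54 RPKM at 20 °C against 1941 ± 378 RPKM at 30 °C (means ± SD over 8 libraries). Macrophages also make Apoe, and their markers were lower in the same comparison, as given above. Their part in the fall of Apoe was not tested. Sel1l, which works with LMF1 in the maturation of the lipase, was 0.78 ± 0.064 higher in Ucp1-KO iBAT at 20 °C (adjusted p = 5.82e-14), with 29.5 ± 2.0 RPKM against 16.8 ± 1.3 RPKM in wild-type mice. In that comparison 5 of the 17 were higher and 4 lower, against 24.7% and 13.1% of all genes. Gm6484, the mouse gene of ANGPTL8, was 1.25 ± 0.18 higher in Ucp1-KO than in wild-type iWAT at 30 °C (adjusted p = 2.61e-06) and fell by 1.303 ± 0.18 on high fat diet in Ucp1-KO iWAT (adjusted p = 5.27e-07). Of 18 genes of this list tested in iWAT, 1 was higher and 2 lower between the genotypes at 30 °C, against 7.54% and 16.2% of all genes. High fat diet raised 3 and lowered 2 in Ucp1-KO iWAT, against 16.1% and 8.31%. The list's median change was -0.41 in cold Ucp1-KO iBAT, against -0.34 for all genes.

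Among 10 tested lipoprotein receptors and regulators, 2 rose and 7 fell in Ucp1-KO iBAT at 20 °C, against 13.9% and 59.5% of all genes, and 2 rose and 1 fell in wild-type iBAT, against 11.6% and 33%. Lrp1, a receptor for remnants, fell by 1.68 ± 0.11 in cold Ucp1-KO iBAT (adjusted p = 5.39e-17), with 20.4 ± 3.6 RPKM at 20 °C against 67.4 ± 10 RPKM at 30 °C. Between the genotypes in iBAT at 30 °C, 9 of these 10 were higher in Ucp1-KO mice, against 54.2% of all genes, and 0 lower, against 10.5%, with a median of 0.71 against 0.27 for all genes. Summed macrophage markers spanned 431 to 2266 RPKM in Ucp1-KO iBAT there, against 207 to 352 RPKM in wild-type iBAT, and in Ucp1-KO iBAT they were lower in the cold; their part in these counts was not tested.

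For other fatty acid binding and uptake genes, 14 were tested in iBAT and 16 in iWAT. In Ucp1-KO iBAT at 20 °C 3 rose and 7 fell, against 13.9% and 59.5% of all genes, and in wild-type iBAT 4 rose and 5 fell, against 11.6% and 33%. Slc27a2, a fatty acid transporter, was 1.64 ± 0.41 higher in Ucp1-KO than in wild-type iWAT at 20 °C (adjusted p = 0.000683) and fell by 2.42 ± 0.41 on high fat diet in Ucp1-KO iWAT (adjusted p = 1.92e-05). Acsl1, which activates fatty acids, was 0.56 ± 0.11 higher in Ucp1-KO iWAT at 20 °C (adjusted p = 5.01e-05) and 0.77 ± 0.11 higher at 30 °C (adjusted p = 2.79e-06). Of the 16 genes in iWAT, 2 were higher and 5 lower in Ucp1-KO mice at 20 °C, against 9.85% and 55% of all genes. At 30 °C 4 were higher and 0 lower, against 7.54% and 16.2%. High fat diet raised 3 and lowered 3 in Ucp1-KO iWAT, against 16.1% and 8.31%. Of 12 PPAR factors and partners, 2 rose and 6 fell in cold Ucp1-KO iBAT, against 13.9% and 59.5% of all genes. In cold wild-type iBAT 1 rose and 7 fell, against 11.6% and 33%. Ppargc1a, a coactivator of oxidative genes, was 2.27 ± 0.24 higher in Ucp1-KO than in wild-type iBAT at 20 °C (adjusted p = 9.96e-11), at 66.0 ± 13 RPKM against 13.9 ± 6.3 RPKM, and 1.54 ± 0.13 higher in iWAT (adjusted p = 4.49e-13), at 7.83 ± 1.2 RPKM against 2.12 ± 0.83 RPKM. Ppara, the fatty acid sensor, was 0.92 ± 0.20 higher in Ucp1-KO iWAT at 20 °C (adjusted p = 0.00011). Between the genotypes at 20 °C, 4 of the 12 were higher and 3 lower in Ucp1-KO iBAT, against 24.7% and 13.1% of all genes. In Ucp1-KO iWAT 4 were higher and 4 lower, against 9.85% and 55%.

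Genes whose values ran most like those of a member were sought over the 48 libraries of each depot, by Pearson's r of log2(RPKM + 1), among 7689 genes in iBAT and 8870 in iWAT. These correlations describe libraries that share groups, depth and cell composition. For Gpihbp1 they were Cd300lg (0.942), Gpr116 (0.935) and Gpr56 (0.921) in iBAT, and Gpr56 (0.951), Gpr116 (0.934) and Esam (0.918) in iWAT. For Angptl4 they were Rhoc (0.953), F11r (0.949) and Cldn5 (0.941) in iBAT, and Ehd2 (0.942), Cav1 (0.942) and Reep5 (0.939) in iWAT. Fabp3 ran most like Tbc1d20 (0.936), Abhd17c (0.883) and Lgr6 (0.870) in iBAT and like Abi3 (0.936), Phospho1 (0.935) and Zfp652 (0.933) in iWAT. Vldlr ran most like Ghitm (0.881), Lrrc39 (0.878) and Stradb (0.875) in iBAT and like Pcyox1 (0.906), Gid4 (0.877) and Mfn2 (0.858) in iWAT. Cd36 ran most like Eng (0.933), an endothelial marker, Rock2 (0.931) and Sparc (0.930) in iBAT, and Fabp5 ran most like Me1 (0.948), Taldo1 (0.947) and Pmvk (0.947) in iWAT. Lpl had weaker partners in iBAT, led by Rps27l (0.766), than in iWAT, led by Sort1 (0.896).

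The order of the group means was seldom clear-cut. A gap between neighbours larger than the larger of their SDs was found in 3 of 11 places for Lmf1 and Fabp3, in 2 for Angptl4, Vldlr and Cd36, in 1 for Gpihbp1 and Fabp5, and in 0 for Lpl and Fabp4. For Fabp3, Ucp1-KO iBAT at 20 °C (407.7 RPKM) and wild-type iBAT on high fat diet (425 RPKM) headed the order with no such gap between them, and Ucp1-KO iWAT at 20 °C (57.5 RPKM) stood apart from all iBAT groups above it and all iWAT groups below it. For Vldlr, Ucp1-KO iBAT at 20 °C (72.0 RPKM) stood apart from the next group, wild-type iBAT at 20 °C (42.1 RPKM). For Fabp5, Ucp1-KO iWAT at 20 °C (76.0 RPKM) stood apart from wild-type iWAT at 20 °C (51.4 RPKM).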

How the data were processed

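RNA of 96 libraries was sequenced after TRIsure and SV Total RNA extraction and TruSeq Stranded mRNA preparation, per the labels' protocols. CASAVA and bcl2fastq are named in the submitters' processing notes. The aligner, the build and how reads were counted, also between near-identical genes, were not given in the sources used here. The authors deposited RPKM values for 168326 transcript rows, and 0 value columns were left unused. Low values were whole multiples of 1 read (tolerance 0.05, up to 20 reads) for 95.05 to 95.93% of values, which gave the depths; counting error is largest for low values. The 9 members and the gene lists were chosen with earlier results of these data known. Each symbol was represented by its row of highest mean. limma 3.58.1 (R 4.3.3, limma-trend) was fitted to log2(RPKM + 1) for genes with at least 0.5 RPKM in 8 libraries (14807 in iBAT, 15897 in iWAT, 16310 over both), with Benjamini-Hochberg adjustment over all genes within each of 28 comparisons and a threshold of 0.05, and was tested on simulated data. The fold change of low genes is understated on this scale. Within a depot, groups hold separate animals, so p-values cover the spread between animals; an iBAT group and its iWAT group come from the same mice, and tests between depots treat these libraries as independent. No batch is labelled. Genes outside the members were named as up to 3 of smallest p for each list and comparison, and 3 of highest correlation for each member among genes averaging at least 5 RPKM. The settings were 6 planned (a pseudocount of 0.1 RPKM, no filter, median-ratio scaling, quantile normalization, summed transcript rows, only the groups compared) and 3 chosen after seeing the data (the RefSeq coding row, without libraries over 2000 RPKM of muscle markers, and without libraries that stand apart). Leaving Ucp1 out of the summed brown markers was also chosen after seeing the data. A gene of the lists is not reported here.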

Additional observations from a re-analysis of the deposited data

Results flagged for a closer look

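In 12 of 108 combinations of member and group, 1 library lay far from the other 7. Chance alone picks about 1 group in 20 only where values are normally distributed and independent. The members share libraries, so the count cannot be set against that rate. In Ucp1-KO iBAT at 20 °C library 16 was highest for Fabp3 (690.4 RPKM, next 456.2), Angptl4 (158.2 RPKM, next 124.1) and Lmf1 (22.9 RPKM, next 19.41), and it held 3560.7 RPKM of muscle markers, the most in its group. In Ucp1-KO iBAT at 30 °C library 31 was highest for Angptl4, at 283 RPKM with 217.9 next. In wild-type iBAT Lmf1 reached 13.59 RPKM in library 18 at 30 °C (next 10.53), and Cd36 was lowest in library 38 on high fat diet, at 1458 RPKM with 1667 next. In iWAT Gpihbp1 was highest in library 79 of the Ucp1-KO mice at 30 °C (182.7 RPKM, next 136.2) and in library 70 of the wild-type mice at 30 °C (157.8 RPKM, next 114.3). Vldlr was highest in library 73 of Ucp1-KO iWAT at 30 °C (25.36 RPKM, next 16.32), which held 8684.5 RPKM of muscle markers. Fabp3 was highest in library 64 of Ucp1-KO iWAT at 20 °C (137.9 RPKM, next 77.11), in library 94 of Ucp1-KO iWAT on high fat diet (1.882 RPKM, next 0.5514) and in library 52 of wild-type iWAT at 20 °C (15.63 RPKM, next 7.76). Muscle markers summed to 78.6 RPKM in library 31, 95.5 in library 18, 4.35 in library 38 and 2511 in library 79. They summed to 1457.5 RPKM in library 70, 99.6 in library 64, 774 in library 94 and 11.9 in library 52. The part of muscle in these far values was not tested.

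In 15 of 72 limma tests of whether a response differed between groups, the difference passed the threshold. The response to cold differed between genotypes in iBAT for Vldlr (1.106), Cd36 (0.350), Fabp3 (3.026) and Fabp5 (-0.935), and in iWAT for Vldlr (1.020) and Fabp3 (2.605). The response to diet differed between genotypes in iBAT for Lmf1 (-0.403). Between the depots, the response to cold differed in Ucp1-KO mice for Angptl4 (-0.498), Fabp3 (-1.819) and Fabp5 (-1.079), and in wild-type mice for Lmf1 (0.348), Angptl4 (-0.839), Cd36 (-0.434) and Fabp3 (-2.240). The response to diet differed between the depots in Ucp1-KO mice for Fabp3 (1.749).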

How the results depend on the processing

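Of 105 calls made for the members over 28 comparisons, 64 kept their direction and side of the threshold under all 9 other settings, including 14 of 14 for Vldlr, 17 of 20 for Fabp3 and 0 of 3 for Lpl. The scalings moved most. Median-ratio scaling reversed the change between temperatures in Ucp1-KO iBAT for Lpl (0.376), Gpihbp1 (0.021) and Cd36 (0.281), the genotype difference of Cd36 in iBAT at 30 °C (-0.127) and on high fat diet (-0.174), and, between iBAT and iWAT of wild-type mice, Lpl (0.366) and Cd36 (0.411) at 20 °C, Angptl4 (0.472) at 30 °C, and Lpl (0.393), Angptl4 (0.126) and Fabp4 (0.507) on high fat diet. Quantile normalization reversed Lmf1 between genotypes in iBAT at 30 °C (-0.044), Fabp4 between genotypes in iWAT at 20 °C (-0.414), Fabp4 (-0.989) at 30 °C and Lpl (0.349) on high fat diet between the depots of wild-type mice, and Cd36 in the depot by diet difference of wild-type mice (0.523). The number of members called moved by more than 1.5 times as follows. Median-ratio scaling gave 3 between genotypes in iBAT at 30 °C, 6 in iWAT at 20 °C (5 with quantile normalization), 8 between depots of wild-type mice at 20 °C, and 1 for diet in Ucp1-KO iWAT. Diet in wild-type iWAT gave 1 with no filter, either scaling, only the groups compared, or without muscle-rich libraries. Genotype by diet in iBAT gave 0 with no filter, either scaling, or without muscle-rich libraries. Between genotypes in iWAT at 30 °C, 1 was called with no filter or without libraries that stand apart, and 0 without muscle-rich libraries. Diet in Ucp1-KO iWAT and depot by diet in Ucp1-KO mice gave 0 without muscle-rich libraries, and depot by diet gave 1 in wild-type and 2 in Ucp1-KO mice with quantile normalization. The cause was not tested for any of these. No paired analysis was possible because no replicate number is shared between groups. Depth limits Fabp3 in iWAT, where values under 1 RPKM stand for a few reads.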
